A study of Mus musculus with 40 samples.

Results

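The genes described here are 6 clock-controlled transcription factor genes of the mouse, Dbp, Tef, Hlf, Ciart, Bhlhe40 and Bhlhe41, followed across mouse melanoma cells in which the clock activator Bmal1 (gene symbol Arntl) was removed, restored or over-expressed. They were chosen by name, and all 6 were found by Ensembl identifier among the 51789 genes of the count table, 27946 of which had at least 1 count. QuantSeq 3′ RNA sequencing was run on 40 libraries in 20 groups of 2. The B16-F10 groups were a control clone (Ctrl) and a Bmal1 knockout clone (KO). The YUMM2.1 line, from a mouse tumour with mutant Braf, 1 lost copy of Cdkn2a and a stabilised beta-catenin, carried empty vector (EV), wild-type Bmal1 (WT) or a Bmal1 without its bHLH domain, the part that contacts DNA (dHLH). The same 3 constructs were carried by aC3, which is a single Bmal1-null clone of YUMM2.1, and by YUMM1.7, a line with mutant Braf and without Cdkn2a. The study describes a Bmal1-promoter luciferase reporter in both the YUMM2.1 and the aC3 cells that received these constructs. In 9 further groups, YUMM2.1 cells with EV, WT or dHLH also carried a control hairpin (shNC) or 1 of 2 hairpins against Myh9 (shM2 and shM4), the non-muscle myosin heavy chain gene, so all cells of that experiment had been selected with puromycin. Constructs were delivered by lentivirus and sorted by a fluorescent marker. No time of day or synchronisation was given for the RNA, so the clock phase of each level is not known.

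Bmal1 pairs with Clock, binds E-boxes in DNA and activates genes in a daily cycle. Dbp, Tef and Hlf form the PAR bZIP family, proteins that bind D-boxes and pass the rhythm on to genes of metabolism and detoxification. Bhlhe40 and Bhlhe41 (also called Dec1 and Dec2) encode basic helix-loop-helix repressors that bind E-boxes and oppose Bmal1 and Clock, and both also respond to low oxygen. Ciart (also called Chrono) encodes a repressor that binds Bmal1.

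E-boxes before the annotated start sites were searched first, because they are the letters that Bmal1 and Clock bind. RefSeq windows of the 250 bases upstream (GRCm38.p6) were held for 5 of the 6 genes, with 2 starts for Tef, and not for Bhlhe40. The sequence CACGTG, which reads the same on both strands, occurred in 6.02% of 32851 such windows of mouse genes. Ciart had 3 copies, beginning 116, 58 and 44 bases before its start, a number reached or passed by 0.0609% of windows. Tef had 1 copy at each start, beginning 127 and 138 bases upstream, Bhlhe41 had 1 copy beginning 153 bases upstream, and Dbp and Hlf had none in this window. Neither the related CACGTT (3.85% of windows, either strand) nor the D-box letters TTATGTAA and TTACGTAA (0.931% of windows) were found in any window of the 5 genes. The windows below show Ciart and both Tef starts on account of their E-boxes, Bhlhe41 as the other repressor with one, and Dbp as the gene with the largest difference between constructs. Capitals mark CACGTG, and each window is written 5′ to 3′ on the strand of its gene: chr3:95882229-95882478 (minus) for Ciart, chr15:81802423-81802672 and chr15:81811164-81811413 (plus) for Tef, chr6:145865421-145865670 (minus) for Bhlhe41 and chr7:45704997-45705246 (plus) for Dbp.
Ciart: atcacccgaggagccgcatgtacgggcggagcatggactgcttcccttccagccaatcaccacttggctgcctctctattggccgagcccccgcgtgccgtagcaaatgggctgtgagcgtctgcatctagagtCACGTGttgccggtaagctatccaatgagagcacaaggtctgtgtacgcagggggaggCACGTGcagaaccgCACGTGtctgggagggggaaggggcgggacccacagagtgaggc
Tef start 1: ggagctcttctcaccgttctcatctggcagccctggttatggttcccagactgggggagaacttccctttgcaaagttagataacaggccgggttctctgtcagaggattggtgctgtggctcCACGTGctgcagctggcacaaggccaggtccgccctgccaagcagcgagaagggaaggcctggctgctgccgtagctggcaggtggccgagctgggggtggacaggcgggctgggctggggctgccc
Tef start 2: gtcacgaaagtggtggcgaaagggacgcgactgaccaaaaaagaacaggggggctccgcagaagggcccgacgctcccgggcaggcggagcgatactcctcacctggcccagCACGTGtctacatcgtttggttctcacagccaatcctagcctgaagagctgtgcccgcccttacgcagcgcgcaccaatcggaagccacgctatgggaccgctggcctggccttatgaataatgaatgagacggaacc
Bhlhe41: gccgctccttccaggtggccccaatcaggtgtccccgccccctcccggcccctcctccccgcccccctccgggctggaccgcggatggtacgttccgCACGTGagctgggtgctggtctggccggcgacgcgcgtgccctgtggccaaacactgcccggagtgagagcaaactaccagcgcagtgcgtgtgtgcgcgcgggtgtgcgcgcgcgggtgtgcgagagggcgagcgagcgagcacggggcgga
Dbp: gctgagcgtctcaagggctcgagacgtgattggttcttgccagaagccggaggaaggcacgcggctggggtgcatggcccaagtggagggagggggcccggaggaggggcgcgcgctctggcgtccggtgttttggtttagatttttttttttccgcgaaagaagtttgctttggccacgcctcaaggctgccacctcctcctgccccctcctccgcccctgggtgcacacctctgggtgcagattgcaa

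**Figure D1:**
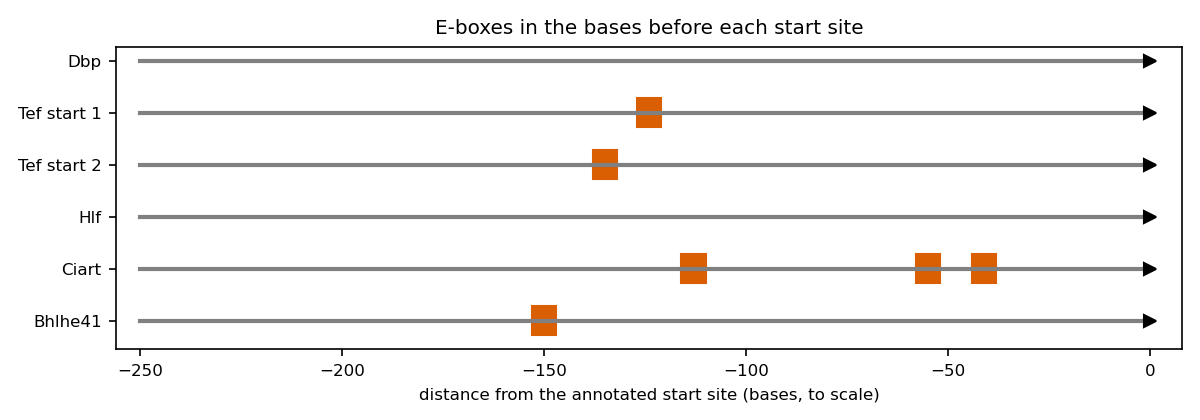
E-boxes (orange, CACGTG) drawn to scale in the 250 bases before each annotated start site (black arrow) of Dbp, Tef, Hlf, Ciart and Bhlhe41, with distance from the start in bases on the horizontal axis. Ciart has 3 E-boxes, both Tef starts and Bhlhe41 have 1, and Dbp and Hlf have none in this window.

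Totals per library ran from 3643332 to 22970049 counts, with a median of 10021164. In the study's own table of normalised values, the column for YUMM2.1 EV replicate 2 followed the library labelled YUMM2.1 WT replicate 1, and the column for WT replicate 1 followed the library labelled EV replicate 2, whereas the other 6 columns compared followed their own labels. Results that rest on these libraries are given as labelled. For the main member tests they are also given with the labels exchanged or both libraries removed, and counts over gene lists are given as labelled only. The melanocytic list had 8 of 10 genes above 1 CPM (counts scaled to a common library total) in B16-F10, Mitf and Sox10 alone in YUMM2.1 and aC3, and Mitf alone in YUMM1.7, so most defining pigment cell genes were near 0 outside B16-F10. Leukocyte markers summed to at most 2.61 CPM in any library, and keratinocyte markers to at most 0.486 CPM. The endothelial list of 3 summed to 3.75 to 5 CPM in B16-F10, 7.96 to 26.4 CPM in YUMM2.1, 6.7 to 12.5 CPM in aC3 and 12.1 to 22.4 CPM in YUMM1.7. Of these, Pecam1 was above 1 CPM on average in every line and Cdh5 in YUMM2.1 and YUMM1.7. Arntl was counted near its 3′ end, which neither the knockout nor an added coding sequence need alter, so its level checks neither: it was 15.2 and 10.7 CPM in B16-F10 Ctrl against 13.3 and 11.5 CPM in KO, 30.5 to 33.1 CPM in aC3 EV, 17.5 to 18.2 CPM in aC3 WT and 31.8 to 45.4 CPM in aC3 dHLH. Without a hairpin it was 13.9 to 15.9, 13.9 to 18.2 and 35.4 to 51.1 CPM in EV, WT and dHLH cells of YUMM2.1, and 8.46 to 8.61, 12.5 to 14.7 and 14.7 to 20.5 CPM in those of YUMM1.7. In the cells with hairpins it was 22.9 to 54.4 CPM. Myh9 fell with both hairpins in all 3 kinds of cells, with log2 differences of -1.51, -2.04 and -1.69 for shM2 and -0.52, -0.93 and -0.42 for shM4 in EV, WT and dHLH cells.

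Levels are given as CPM, scaled by TMM (trimmed mean of M-values) over all 40 libraries, and are compared only within a gene. Dbp ranged from 3.31 CPM in a B16-F10 KO library to 45.4 CPM in an aC3 WT library, 12.7-fold between the lowest and the highest group mean, and Tef from 38.7 to 122 CPM, 2.63-fold between group means. Ciart ranged from 0.0959 to 9.08 CPM, Bhlhe40 from 5.62 to 56.3 CPM and Bhlhe41 from 3.76 to 292 CPM. Hlf had more than 3 counts in 17 of 40 libraries and 0 in 12. With the 20 groups ranked by mean, the ranges of the 2 libraries overlapped between neighbours for 12 of 19 neighbouring pairs for Dbp, 17 for Tef, 16 for Hlf, 17 for Ciart, 13 for Bhlhe40 and 18 for Bhlhe41, so most neighbours in these orders were not separated. Fewer cells that express a gene and less RNA per cell cannot be told apart in such bulk libraries.

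**Figure D2:**
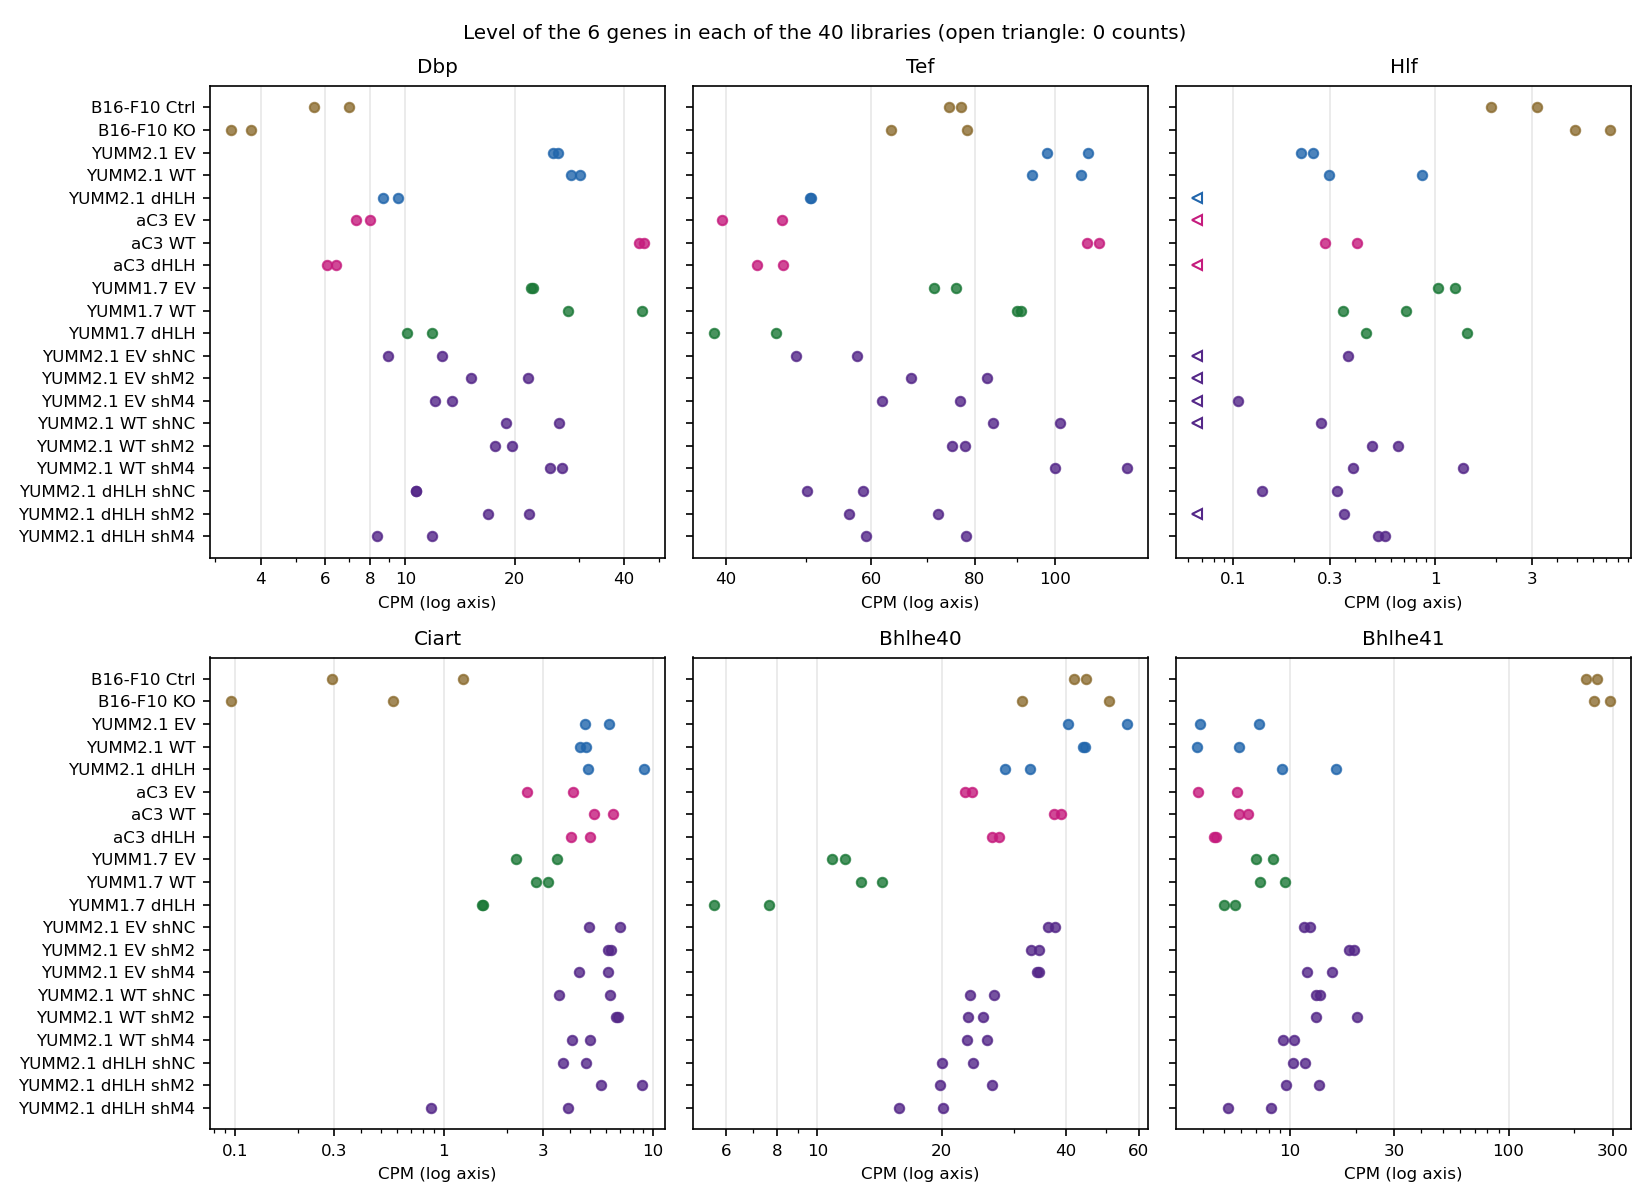
Level of each gene in every library, in CPM on a log axis, with 1 point per library, groups as rows and colours for B16-F10, YUMM2.1, aC3, YUMM1.7 and the hairpin experiment; open triangles mark libraries with 0 counts. Without a hairpin, Dbp is at most 11.8 CPM in the dHLH groups and 7.97 CPM in aC3 EV, Bhlhe41 is highest in B16-F10 (up to 292 CPM), and Hlf is above 1.43 CPM in no other line.

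Whether restoring Bmal1 to Bmal1-null cells changed these genes was read from aC3. Dbp lies on chromosome 7 (45705088 to 45710203, plus strand, GRCm38) and Tef on chromosome 15 (81802421 to 81826863, plus strand). Dbp was 7.33 and 7.97 CPM in aC3 EV, 45.4 and 44 CPM in aC3 WT, and 6.08 and 6.45 CPM in aC3 dHLH. Both WT libraries stood above all the others, and the dHLH libraries lay just below EV. Dbp rose with WT against EV by 2.54 on the log2 scale (SE 0.15, 5.83-fold, adjusted p = 6.58e-07) and was 7.19-fold higher with WT than with dHLH (log2 difference 2.85, SE 0.15, adjusted p = 1.27e-07). Tef was 46.7 and 39.6 CPM with EV, 109 and 113 CPM with WT, and 46.9 and 43.6 CPM with dHLH, so that WT was separate and EV and dHLH overlapped. Tef rose 2.57-fold with WT against EV (log2 1.36, SE 0.10, adjusted p = 4.4e-06) and was 2.48-fold higher with WT than with dHLH (log2 1.31, SE 0.10, adjusted p = 9.63e-06). Neither gene passed the test between dHLH and EV, where the 95% confidence interval of the log2 difference was -0.68 to 0.07 for Dbp and -0.17 to 0.28 for Tef. Bhlhe40, at 22.8 and 23.6 CPM with EV, 37.4 and 38.9 CPM with WT and 26.5 and 27.5 CPM with dHLH, rose 1.64-fold with WT against EV (log2 0.71, SE 0.11, adjusted p = 0.00129). Against dHLH its difference was 0.51 (SE 0.11, adjusted p = 0.0504), and it passed the test at an adjusted p of 0.0426 once dHLH replicate 2 was left out. Of the 5 members tested, 3 were called with WT against EV, where 11.2% of 13790 genes were called, 0 with dHLH against EV (10.9% of genes, and 0 of the 5 also by DESeq2 and at an unadjusted p under 0.05), and 2 with WT against dHLH (0.877%). The melanocytic list summed to 453 to 466 CPM with EV, 562 to 567 CPM with WT and 564 to 626 CPM with dHLH in aC3. The 3 comparisons share groups and are not independent (likewise in the other cell sets).

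In YUMM2.1 cells, which have their own Bmal1, Dbp and Tef fell with dHLH, and no difference passed the test with WT. Dbp was 26.4 and 25.6 CPM with EV, 28.6 and 30.3 CPM with WT, and 9.56 and 8.68 CPM with dHLH. Both dHLH libraries stood far below the other 4. Dbp fell with dHLH against EV by 1.50 on the log2 scale (SE 0.17, 2.83-fold, adjusted p = 0.00346) and was 3.21-fold higher with WT than with dHLH (log2 1.68, SE 0.17, adjusted p = 0.00251). Tef was 98 and 110 CPM with EV, 108 and 93.8 CPM with WT, and 50.5 and 50.7 CPM with dHLH. It fell 2.05-fold with dHLH against EV (log2 -1.03, SE 0.13, adjusted p = 0.00542) and was 1.98-fold higher with WT than with dHLH (log2 0.99, SE 0.13, adjusted p = 0.00623). Without WT replicate 1 the last value was 0.88 with an adjusted p of 0.0723. Between WT and EV no member was called, in a comparison with 0% of 14323 genes called, 98 genes at an unadjusted p under 0.05 and 0 members by DESeq2, and the intervals were -0.19 to 0.55 for Dbp and -0.35 to 0.26 for Tef. With the labels exchanged the WT difference was 0.02 for Dbp and -0.02 for Tef, and 0.705% of genes were called. Exchanging the labels gave dHLH differences of -1.59 and -1.02 for Dbp and Tef, and removing both libraries gave -1.54 and -0.97, all of which passed the test. The summed melanocytic list moved with the same groups, at 81.4 to 94 CPM with dHLH against 498 to 516 CPM with EV and 450 to 558 CPM with WT, and Sox10, a neural crest and melanocyte factor, was most of it (log2 -2.82 for dHLH less EV, SE 0.16). Tyrp1, Mlana, Ednrb and Kit were at 0 in this line, and the part of these markers in the result was not tested. The call was reached by 2 of 5 members with dHLH against EV (13.2% of genes) and by 2 of 5 with WT against dHLH (13% of genes). With the replicate number as a block, on the labels as deposited, it was reached by 4 tests more, of Bhlhe40 and Bhlhe41.

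YUMM1.7 gave the same order of means for Dbp, with WT above EV and EV above dHLH, and its WT libraries differed among themselves. Dbp was 22.2 and 22.5 CPM with EV, 44.9 and 28.1 CPM with WT, and 11.8 and 10.1 CPM with dHLH. The 3 groups did not overlap. Dbp was 3.35-fold higher with WT than with dHLH (log2 1.74, SE 0.19, adjusted p = 6.09e-05) and fell 2.03-fold with dHLH against EV (log2 -1.02, SE 0.20, adjusted p = 0.0234). That second call was lost without EV replicate 1, EV replicate 2, dHLH replicate 1 or dHLH replicate 2 (adjusted p = 0.215, 0.266, 0.12 and 0.28), while its value stayed between -1.14 and -0.90. WT against EV gave 0.72 for Dbp (SE 0.17, adjusted p = 0.121), which became 1.02 with an adjusted p of 0.0013 without WT replicate 2. Tef was 71.4 and 76 CPM with EV, 90 and 91.1 CPM with WT, and 38.7 and 46 CPM with dHLH, again without overlap. Tef fell with dHLH against EV by 0.79 on the log2 scale (SE 0.09, adjusted p = 0.000152), was 2.14-fold higher with WT than with dHLH (log2 1.10, SE 0.09, adjusted p = 2.36e-06), and differed by 0.31 (SE 0.08, adjusted p = 0.185) between WT and EV. Bhlhe40 was 11.7 and 10.9 CPM with EV, 12.7 and 14.4 CPM with WT, and 5.62 and 7.63 CPM with dHLH, and was 2.05-fold higher with WT than with dHLH (log2 1.03, SE 0.19, adjusted p = 0.00776). Without dHLH replicate 1 this was 0.84 (adjusted p = 0.0974). Of 6 members tested in YUMM1.7, 0 were called with WT against EV (0.138% of 13816 genes), 2 with dHLH against EV (0.63%) and 3 with WT against dHLH (2.57%). With WT against EV, 2 members and 1423 of all genes had an unadjusted p under 0.05. DESeq2 left the adjusted p of 5 of the 6 members undefined both with WT against EV and with dHLH against EV.

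With the control hairpin shNC, YUMM2.1 cells differed from those without a hairpin in the EV group. Dbp was 12.6 and 8.97 CPM with EV, 18.9 and 26.5 CPM with WT, and 10.7 and 10.7 CPM with dHLH. The dHLH libraries lay within the range of EV, and both WT libraries lay above. Dbp rose 2.12-fold with WT against EV (log2 1.08, SE 0.24, adjusted p = 0.00309) and was 2.12-fold higher with WT than with dHLH (log2 1.08, SE 0.24, adjusted p = 0.0215). Tef was 48.7 and 57.6 CPM with EV, 84.1 and 101 CPM with WT, and 50.1 and 58.7 CPM with dHLH, which again overlapped EV. Tef rose 1.75-fold with WT against EV (log2 0.81, SE 0.17, adjusted p = 0.00272) and was 1.71-fold higher with WT than with dHLH (log2 0.77, SE 0.17, adjusted p = 0.0259). Bhlhe40 fell with WT here and rose with WT in aC3, a difference between cell sets that was not tested. It was 37.7 and 36.2 CPM with EV, 23.4 and 26.7 CPM with WT, and 20 and 23.8 CPM with dHLH. The log2 difference from EV was -0.56 with WT (SE 0.17, adjusted p = 0.0222) and -0.76 with dHLH (SE 0.17, adjusted p = 0.00247). Members were called in 3 of 5 tests with WT against EV (22.3% of 14848 genes), in 1 with dHLH against EV (26.4%) and in 2 with WT against dHLH (1.91%). The melanocytic list summed to 346 to 349 CPM with EV, 119 to 122 CPM with WT and 41.2 to 44.3 CPM with dHLH, and its part in these results was not tested. The calls of these shNC groups depended on single libraries. For WT against EV, Dbp was lost without EV replicate 2 or WT replicate 2 (0.84 and 0.81, adjusted p = 0.0681 and 0.0707), Tef without EV replicate 1 (0.69, adjusted p = 0.0518), and Bhlhe40 without any 1 of the 4 libraries (-0.66 to -0.46, adjusted p = 0.0607 to 0.146). For dHLH against EV, Bhlhe40 was lost without dHLH replicate 1 (-0.63, adjusted p = 0.0628). For WT against dHLH, Dbp was lost without WT replicate 2, dHLH replicate 1 or dHLH replicate 2 (0.82, 1.07 and 1.09, adjusted p = 0.314, 0.227 and 0.161), and Tef without any 1 of the 4 (0.64 to 0.90, adjusted p = 0.0517 to 0.345).

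**Figure D3:**
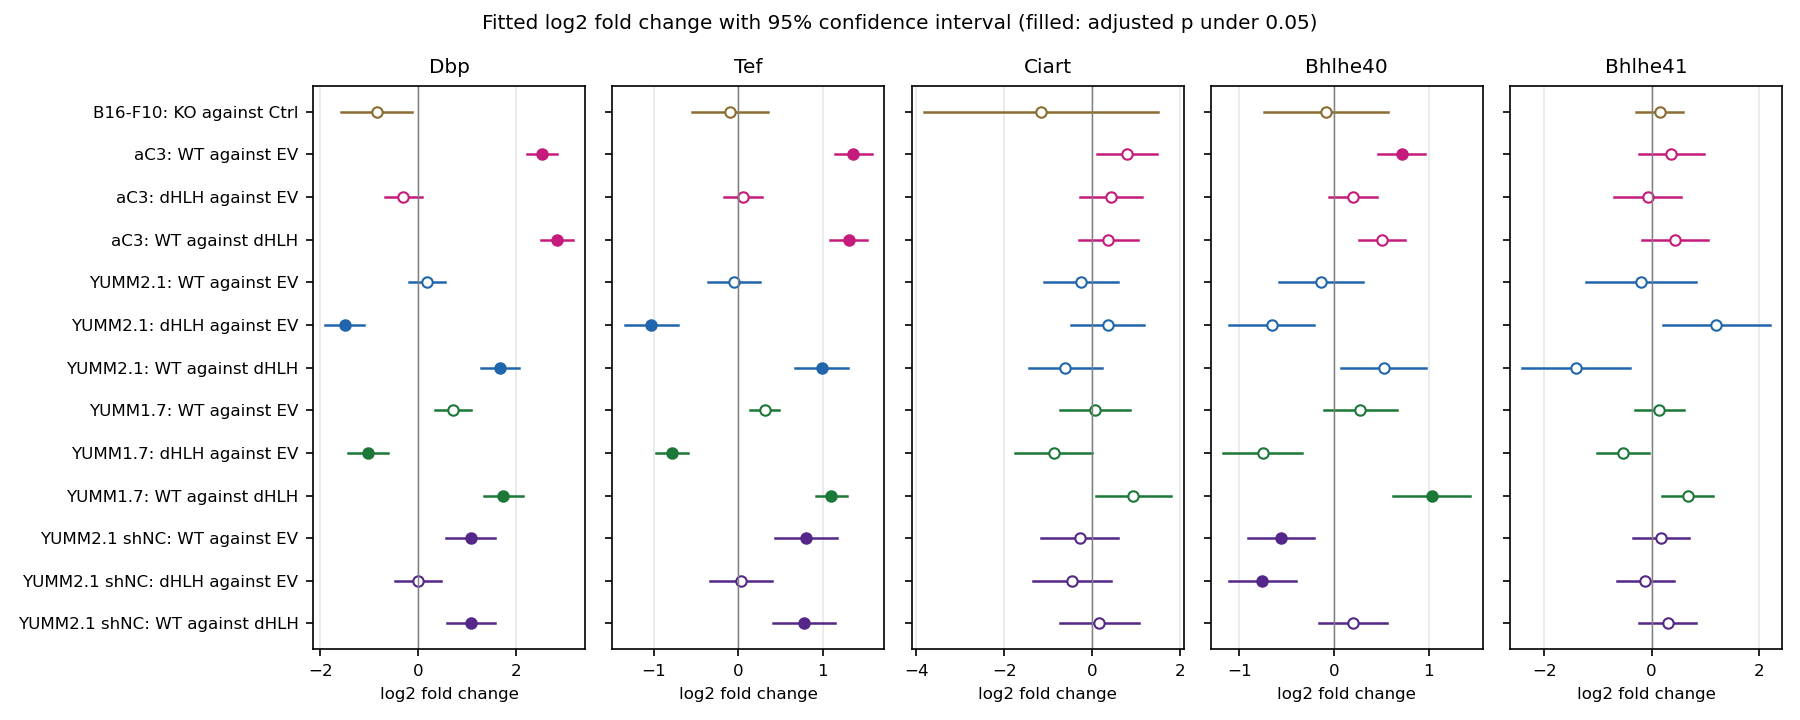
Fitted log2 fold change of Dbp, Tef, Ciart, Bhlhe40 and Bhlhe41 in each comparison within a cell set, with 95% confidence intervals as bars; filled points have an adjusted p under 0.05 and each panel has its own horizontal scale. WT against dHLH was called for Dbp and Tef in all 4 cell sets with constructs, where 0.877% to 13% of all genes were called. No point is filled for Ciart or Bhlhe41.

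Across the 4 cell sets, Dbp and Tef were called higher with WT than with dHLH in 8 of 8 tests, by 2.12-fold to 7.19-fold for Dbp and by 1.71-fold to 2.48-fold for Tef. Over all genes, 0.877% were called in aC3, 13% in YUMM2.1, 2.57% in YUMM1.7 and 1.91% in the shNC cells. The sets are not independent, as aC3 is a clone of YUMM2.1 and the shNC cells are YUMM2.1 cells. Both shNC calls, and that of Tef in YUMM2.1, depended on single libraries. Where EV stood between WT and dHLH was a matter of the cell set, and this was tested as a difference of differences in 1 fit of all 40 libraries. The WT difference from EV was larger in aC3 than in YUMM2.1 by 2.36 for Dbp (SE 0.30, adjusted p = 0.000151) and by 1.41 for Tef (SE 0.22, adjusted p = 0.00161), 2 of 6 members against 0.168% of genes. The dHLH difference from EV was higher in aC3 than in YUMM2.1 by 1.22 for Dbp (SE 0.32, adjusted p = 0.0117), 1.10 for Tef (SE 0.22, adjusted p = 0.000968) and 0.88 for Bhlhe40 (SE 0.26, adjusted p = 0.0243), 3 of 6 members against 11.6% of genes. Dbp missed the threshold there without aC3 EV replicate 1 (1.14, adjusted p = 0.0587), and Bhlhe40 without YUMM2.1 EV replicate 1, YUMM2.1 dHLH replicate 2 or any 1 of the 4 aC3 libraries (0.61 to 0.90, adjusted p = 0.0654 to 0.223). In the shNC cells the dHLH difference exceeded that of hairpin-free YUMM2.1 by 1.50 for Dbp (SE 0.32, adjusted p = 0.011) and 1.06 for Tef (SE 0.22, adjusted p = 0.0104), 2 of 6 members against 1.82% of genes, and the WT difference by 0.85 for Tef (SE 0.22, adjusted p = 0.0153) and 0.90 for Dbp (SE 0.30, adjusted p = 0.0673), 1 of 6 members against 7.53%. These shNC terms were lost without 1 library for Dbp with dHLH (YUMM2.1 dHLH replicate 2, shNC EV replicate 2 or shNC dHLH replicate 1, adjusted p = 0.0609, 0.0885 and 0.0517), for Tef with dHLH (YUMM2.1 dHLH replicate 2, shNC EV replicate 1 or shNC dHLH replicate 2, adjusted p = 0.0559, 0.0789 and 0.073) and for Tef with WT (YUMM2.1 EV replicate 2, YUMM2.1 WT replicate 2, shNC EV replicate 1 or shNC WT replicate 2, adjusted p = 0.0848, 0.0666, 0.091 and 0.103). Dbp with WT was called without shNC EV replicate 1 (1.19, adjusted p = 0.0424) or shNC WT replicate 1 (1.15, adjusted p = 0.03). YUMM1.7 did not pass the test against YUMM2.1 for any member with WT (0% of genes, 351 genes and 0 members at an unadjusted p under 0.05, 0 members by DESeq2), and the interval for Dbp was -0.07 to 1.12. With dHLH, Dbp and Tef gave 0.48 and 0.24 between YUMM1.7 and YUMM2.1 (adjusted p = 0.419 and 0.636). All of these terms share the YUMM2.1 libraries, and in aC3 the clone and the loss of Bmal1 cannot be told apart. With only the groups compared in the fit, Dbp and Tef with dHLH in the shNC cells and Bhlhe40 with dHLH in aC3 were lost (1.53, 1.10 and 0.83, adjusted p = 0.107, 0.0777 and 0.0827). With the labels exchanged, the calls of the fit of all 40 libraries were kept, and Dbp with WT in the shNC cells (1.06, adjusted p = 0.0326) and Bhlhe40 with WT in aC3 (0.95, adjusted p = 0.0279) were added. Without both libraries, Tef with WT in the shNC cells was lost (0.89, adjusted p = 0.0998).

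Loss of Bmal1 in B16-F10 called none of the 6 genes at an adjusted p under 0.05, in a comparison that called 0.44% of 14556 genes. DESeq2 called 0 members, and by edgeR 2 members and 1715 of all genes had an unadjusted p under 0.05. Dbp was 7 and 5.62 CPM in Ctrl and 3.75 and 3.31 CPM in KO. The KO libraries lay below Ctrl without overlap, and the log2 difference was -0.84 (SE 0.29, 95% interval -1.57 to -0.12, adjusted p = 0.37). Tef, at 74.5 and 77.1 CPM in Ctrl and 63.4 and 78.2 CPM in KO, overlapped and differed by -0.10 (SE 0.18, interval -0.55 to 0.35). The 2 KO libraries differed more than any other replicate pair, with a chi-square of their counts per degree of freedom of 96.5, against 11.2 for the Ctrl pair and at most 22.2 in the other groups. Leaving out KO replicate 1 brought 3 calls, Dbp at -0.94 (adjusted p = 0.0099), Hlf at 1.52 and Bhlhe40 at -0.47 (adjusted p = 0.0032), with a lone KO library assumed to vary like the Ctrl pair. The loss of Bmal1 was also compared between lines, as KO less Ctrl in B16-F10 against EV less WT in aC3. It was smaller in B16-F10 by 1.71 for Dbp (SE 0.31, adjusted p = 0.0009) and by 1.27 for Tef (SE 0.22, adjusted p = 0.000415), 2 of 6 members against 4.77% of genes, where aC3 WT is cells with an added construct and not a parental control. Bhlhe40 gave 0.64 there (SE 0.25, adjusted p = 0.164), and 0.95 with an adjusted p of 0.0191 without B16-F10 KO replicate 2.

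Hlf (chromosome 11, 90336536 to 90390895, minus strand) was the member near the limit of detection. Its counts in B16-F10 were 67 and 39 in Ctrl and 121 and 153 in KO, which are 3.19 and 1.89 CPM against 4.93 and 7.33 CPM. The KO libraries were higher without overlap, by 1.26 on the log2 scale (SE 0.40, adjusted p = 0.338). Outside B16-F10 no library exceeded 1.43 CPM, and both libraries of aC3 EV, aC3 dHLH, YUMM2.1 dHLH and YUMM2.1 EV shM2 had 0 counts, which allows up to 3 counts in a library, by counting error only. YUMM2.1 EV had 3 and 2 counts, and no fold is given against it. The test was made for Hlf in B16-F10, in YUMM1.7 and in the fit of all libraries, and it did not reach the filter on low counts in the other sets. In YUMM1.7 its WT less EV value was -1.07 (SE 0.73, adjusted p = 0.662).

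Ciart (chromosome 3, 95878503 to 95882251, minus strand), with 3 E-boxes before its start, was called in none of the comparisons of constructs, hairpins or knockout. In aC3 it was 2.5 and 4.17 CPM with EV, 6.42 and 5.24 CPM with WT, and 5 and 4.08 CPM with dHLH. WT did not overlap EV, and the difference was 0.80 (SE 0.32, interval 0.12 to 1.49, adjusted p = 0.127). In YUMM2.1 it was 6.14 and 4.74 CPM with EV, 4.78 and 4.49 CPM with WT, and 9.08 and 4.87 CPM with dHLH, so its dHLH libraries spread over most of the range of these 6 libraries. In YUMM1.7 it was 2.23 and 3.46 CPM with EV, 2.76 and 3.15 CPM with WT, and 1.53 and 1.54 CPM with dHLH, with a dHLH difference of -0.87 (SE 0.41, adjusted p = 0.481). Its counts had a median of 41.5 per library, against 127.5 for Dbp and 724.5 for Tef, and its SE in these tests was 0.31 to 0.51 outside B16-F10. Its level in B16-F10 was 1.24 and 0.291 CPM in Ctrl and 0.571 and 0.0959 CPM in KO.

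Bhlhe40 (chromosome 6, 108660629 to 108666925, plus strand) was 56.3 and 40.5 CPM with EV, 43.9 and 44.6 CPM with WT, and 32.7 and 28.4 CPM with dHLH in YUMM2.1. The dHLH libraries lay below all the others, with a difference from EV of -0.66 (SE 0.19, adjusted p = 0.0655) and WT less dHLH of 0.52 (SE 0.19, adjusted p = 0.126). With the replicate number as a block these were -0.65 and 0.53 (adjusted p = 0.00906 and 0.0244), and both passed the test. That block uses the labels as deposited, 2 of which are in doubt, and was not run with them exchanged. Without EV replicate 2 the difference from EV was -0.89 (adjusted p = 0.0274), with the labels exchanged -0.71 (adjusted p = 0.0105), and without both libraries -0.89 (adjusted p = 0.037). In YUMM1.7 the dHLH difference was -0.75 (SE 0.20, adjusted p = 0.13). By group mean, Bhlhe40 thus lay lowest with dHLH in YUMM2.1, YUMM1.7 and the shNC cells, and lowest with EV in aC3. In the shNC cells dHLH overlapped WT, and WT less dHLH was 0.20 (adjusted p = 0.685). The aC3 difference of dHLH less EV was not called either (0.20, adjusted p = 0.298).

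Bhlhe41 (chromosome 6, 145858243 to 145865558, minus strand), the other repressor of the pair, was higher in both YUMM2.1 dHLH libraries than in the other 4 of that set. It was 3.9 and 7.22 CPM with EV, 3.76 and 5.88 CPM with WT, and 9.18 and 16.3 CPM with dHLH. Against EV the difference was 1.21 (SE 0.42, adjusted p = 0.113), and WT less dHLH was -1.41 (SE 0.43, adjusted p = 0.0769). With the replicate number as a block the SE of each was 0.24, and both passed the test (adjusted p = 0.00465 and 0.00225). Here too the block uses the labels as deposited. With the labels exchanged the dHLH difference was 1.72 (adjusted p = 0.00414), and without both libraries 1.69 (adjusted p = 0.0232). In aC3 the 3 construct groups lay between 3.8 and 6.47 CPM, and in YUMM1.7 dHLH was lowest at 5.62 and 4.99 CPM against 8.37 and 7.02 CPM with EV. The dHLH difference was lower in YUMM1.7 than in YUMM2.1 by 1.75 on the log2 scale (SE 0.41, adjusted p = 0.00532), 1 of 6 members against 9.42% of genes, and the same term for aC3 was -1.27 (SE 0.43, adjusted p = 0.0533). The YUMM1.7 term missed the threshold with only the groups compared in the fit (-1.73, adjusted p = 0.0839), and without YUMM2.1 EV replicate 1 or YUMM2.1 dHLH replicate 2 (-1.34 and -1.27, adjusted p = 0.0673 and 0.0657). The aC3 term passed it without YUMM2.1 EV replicate 2, YUMM2.1 dHLH replicate 1 or aC3 EV replicate 2 (adjusted p = 0.0113, 0.0113 and 0.0367), and the shNC term, -1.34 (SE 0.39, adjusted p = 0.0823), without YUMM2.1 EV replicate 2 or YUMM2.1 dHLH replicate 1 (-1.80 and -1.70, adjusted p = 0.024 and 0.0207). With the labels exchanged, the aC3 and shNC terms were -1.78 and -1.85 (adjusted p = 0.00137 and 0.00153), and without both libraries -1.77 and -1.81 (adjusted p = 0.00804 and 0.0164).

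Genes of the response to low oxygen were higher in YUMM2.1 dHLH, where the higher Bhlhe41 did not pass the test as labelled (adjusted p = 0.113). This list too was chosen with earlier results of these data known, and the study reports hypoxia genes enriched with dHLH in this line. Of the list of 12, 11 were called higher with dHLH than with EV, where 13.2% of all genes were called. The median log2 difference was 1.38 against -0.0113 over all genes, and the list summed to 3714 to 3775 CPM with dHLH against 2287 to 2430 CPM with EV. In YUMM1.7, the list summed to 1460 to 1464.5 CPM with dHLH against 1550 to 1579 CPM with EV, and Bnip3, a mitophagy gene, was the 1 of 10 tested that was called, and lower (0.63% of all genes called). In aC3 WT, 4 of 11 were called higher than in EV (11.2% of all genes called), and the sum was 2711 to 2779 CPM against 2428 to 2455 CPM. With dHLH in aC3, 3 of 11 were called higher than in EV (10.9% of all genes called), and neither Bhlhe40 nor Bhlhe41 was called. In the shNC cells, 4 of 12 were called higher with WT (22.3% of all genes called), and 6 higher and 1 lower with dHLH (26.4%), while Bhlhe40 fell in both and Bhlhe41 differed by 0.18 and -0.12 (adjusted p = 0.668 and 0.773). The part of oxygen response in the Bhlhe41 and Bhlhe40 values was not tested.

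Hairpins against Myh9 called no member in 30 tests of 5 members in 6 comparisons, which called 6.65% of genes for shM2 and 1.71% for shM4 in EV cells, 4.76% and 0.236% in WT cells, and 0.559% and 15.1% in dHLH cells. Of the 30 values, 6 had an unadjusted p under 0.05, and DESeq2 called 1. Over all 14848 genes tested, 1515 to 4480 had an unadjusted p under 0.05 in each of these 6 comparisons. Dbp in EV cells was 12.6 and 8.97 CPM with shNC, 15.1 and 21.7 CPM with shM2, and 12.1 and 13.4 CPM with shM4. The shM2 libraries lay above shNC, and the difference was 0.78 (SE 0.24, interval 0.28 to 1.29, adjusted p = 0.0597). By DESeq2 it was 0.78 with an adjusted p of 0.0463. In dHLH cells Dbp was 10.7 and 10.7 CPM with shNC, 22 and 16.8 CPM with shM2, and 11.8 and 8.34 CPM with shM4, a shM2 difference of 0.83 (SE 0.24, adjusted p = 0.175). In WT cells it was 18.9 and 26.5 CPM with shNC, 19.6 and 17.7 CPM with shM2, and 24.9 and 27 CPM with shM4, a shM2 difference of -0.29 (SE 0.22, interval -0.76 to 0.18). The shM2 difference in WT cells less that in EV cells was -1.07 for Dbp (SE 0.33, adjusted p = 0.0673) and -0.78 for Tef (SE 0.24, adjusted p = 0.0722), in a test added after these values were seen, where 5.18% of genes were called and no member was. Both values had an unadjusted p under 0.05, as had 3051 of all genes, and DESeq2 called both (adjusted p = 0.0495 and 0.0363). The other 3 such terms called no member and 3.29% (shM2, dHLH less EV), 0.741% (shM4, WT less EV) and 8.51% of genes (shM4, dHLH less EV). In these, 0, 0 and 1 members and 2499, 1621 and 3661 of all genes had an unadjusted p under 0.05, and DESeq2 called 0 members. Tef in EV cells was 48.7 and 57.6 CPM with shNC, 82.9 and 67.1 CPM with shM2, and 61.8 and 76.8 CPM with shM4, with differences of 0.50 (adjusted p = 0.102) and 0.38 (adjusted p = 0.459). Bhlhe41 with shM4 in dHLH cells was 8.17 and 5.21 CPM against 10.3 and 11.7 CPM with shNC, with a difference of -0.73 (SE 0.29, adjusted p = 0.0964). Ciart in the same cells was 3.95 and 0.869 CPM with shM4 against 4.79 and 3.73 CPM with shNC, a difference of -0.97 (SE 0.51, adjusted p = 0.214). Without shM4 replicate 1 the Ciart difference was -2.29, which leaves 1 shM4 library with 5 counts of Ciart.

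**Figure D4:**
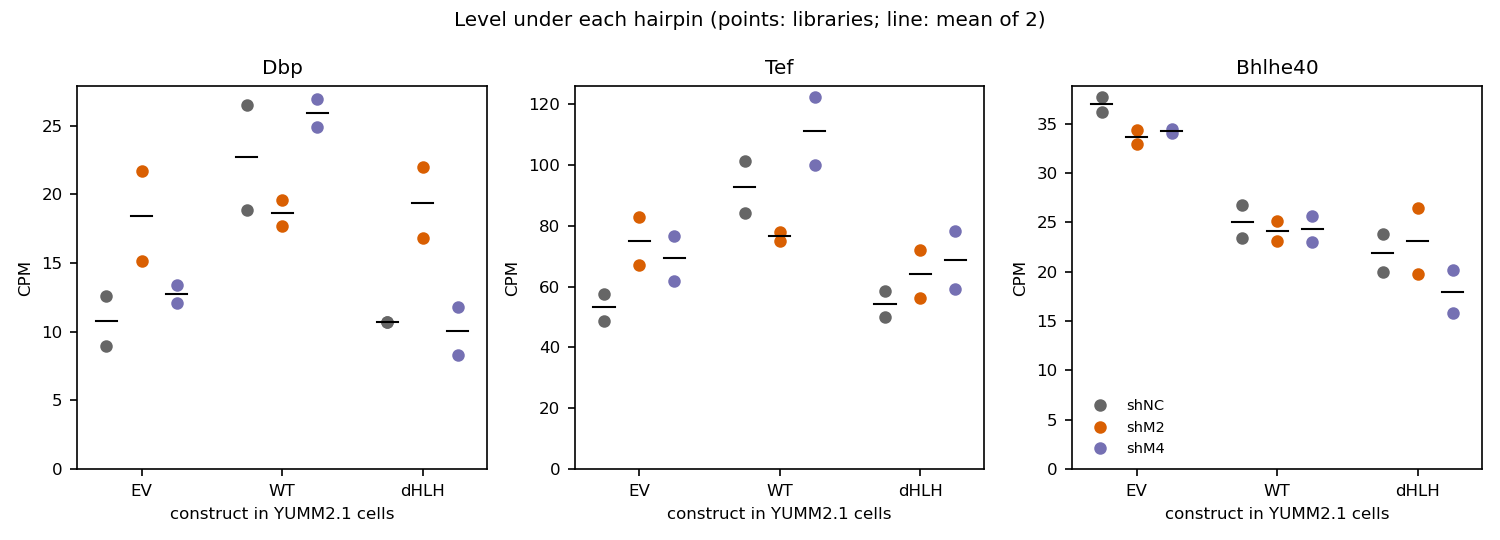
Level in CPM (linear axis from 0) of Dbp, Tef and Bhlhe40 in YUMM2.1 cells with EV, WT or dHLH and the control hairpin (shNC, grey) or a Myh9 hairpin (shM2, orange; shM4, violet); points are libraries and lines are means of 2. Dbp with shM2 lies above shNC in EV and dHLH cells and within or near its range in WT cells, and no difference had an adjusted p under 0.05.

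Between lines, control cells were compared with YUMM2.1 EV in the fit of all 40 libraries. B16-F10 Ctrl differed most: Bhlhe41 was 253 and 227 CPM there against 3.9 and 7.22 CPM, 43.9-fold higher (log2 5.45, SE 0.28, adjusted p = 1.92e-15), Ciart was lower by 2.81 on the log2 scale (SE 0.53, adjusted p = 7.52e-05) and Dbp 4.11-fold lower (log2 -2.04, SE 0.22, adjusted p = 6.91e-09). Tef was lower by 0.46 (SE 0.15, adjusted p = 0.0152), a call lost without B16-F10 Ctrl replicate 1 or YUMM2.1 EV replicate 2 (adjusted p = 0.0812 and 0.117). The Ciart value was -2.14 without Ctrl replicate 2 or more extreme, to -4.19, without Ctrl replicate 1. Counting Hlf, 5 of 6 members were called, in a comparison that called 46.9% of genes. Hlf had 3 and 2 counts in YUMM2.1 EV and passed the filter through groups where it was higher, so its call carries no weight here. YUMM1.7 EV had 4.30-fold less Bhlhe40 than YUMM2.1 EV (log2 -2.10, SE 0.19, adjusted p = 8.9e-10) and less Tef by 0.50 (SE 0.15, adjusted p = 0.0137), 2 of 6 members against 31.8% of genes. That Tef call was lost without YUMM1.7 EV replicate 1 or YUMM2.1 EV replicate 2 (adjusted p = 0.111 and 0.109), and Bhlhe41 was called without the latter (0.97, adjusted p = 0.0438). aC3 EV had 3.39-fold less Dbp than YUMM2.1 EV (log2 -1.76, SE 0.22, adjusted p = 6.37e-06), 2.41-fold less Tef (log2 -1.27, SE 0.16, adjusted p = 5.84e-06) and 2.09-fold less Bhlhe40 (log2 -1.06, SE 0.18, adjusted p = 0.000601), 3 of 6 members against 2.48% of genes. YUMM2.1 EV cells with shNC had 2.42-fold less Dbp than those without a hairpin (log2 -1.27, SE 0.22, adjusted p = 0.000289), 1.95-fold less Tef (log2 -0.97, SE 0.16, adjusted p = 0.000148) and 2.19-fold more Bhlhe41 (log2 1.13, SE 0.29, adjusted p = 0.0102), 3 of 6 members against 10.7% of genes. This Bhlhe41 call was lost without YUMM2.1 EV replicate 1 (0.72, adjusted p = 0.255) or shNC replicate 2 (1.07, adjusted p = 0.0845). With the labels exchanged the calls of this paragraph were kept and Bhlhe41 in YUMM1.7 EV was added (1.01, adjusted p = 0.00371); without both libraries Bhlhe41 was added there too (0.95, adjusted p = 0.0421), and the 2 Tef calls in YUMM1.7 and B16-F10 were lost (-0.44 and -0.38, adjusted p = 0.0959 and 0.12). With only the 2 groups compared in the fit, Bhlhe40 in aC3 EV and Bhlhe41 with shNC were lost (-1.06 and 1.11, adjusted p = 0.0934 and 0.0998). In aC3 the clone cannot be told apart from the loss of Bmal1, nor in B16-F10 Ctrl from the line.

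The rest of the clock was counted over a list of 19 genes. The list was chosen with results of these data known, and its members rose and fell in each construct comparison with calls. Its medians stayed near those of all genes: -0.06 against 0.00727 for WT less EV in aC3, and 0.084 against -0.0113 for dHLH less EV in YUMM2.1. With WT against EV in aC3, 5 of the 18 tested were called higher and 4 lower, led by Per2 (log2 2.90, SE 0.38), Nr1d1 (2.57, SE 0.29) and Per3 (2.25, SE 0.19), repressors of the clock loop. In aC3, 3 were higher and 3 lower with dHLH than with EV, led by Nr1d2 (-2.01, SE 0.15), Nr1d1 (-1.82, SE 0.44) and the repressor gene Cry1 (1.12, SE 0.12), and 4 higher and 3 lower with WT than with dHLH. Over all genes, 11.2% were called with WT against EV in aC3, 10.9% with dHLH against EV and 0.877% with WT against dHLH. Nr1d1 and Nr1d2 thus fell with dHLH in aC3, where Dbp and Tef did not pass the test. In YUMM2.1, of 17 tested, 3 were higher and 4 lower with dHLH than with EV (13.2% of all genes called), led by Nr1d1 (-2.16, SE 0.32), Nfil3 (1.94, SE 0.24), which encodes a repressor at D-boxes, and Rorb (-1.62, SE 0.12), and none passed the test with WT, where no gene of the table did. In YUMM1.7 the 5 of 17 called with dHLH against EV (0.63% of all genes called) were Nr1d1 (-1.37), Nr1d2 (-1.17), Per3 (-1.09), Cry1 (1.12) and Arntl (1.05). With shNC, of 17 tested, 2 were higher and 1 lower with WT (22.3% of all genes called), and 4 higher and 2 lower with dHLH (26.4%), led by Rorb (-2.12, SE 0.14). B16-F10 KO called 1 of 16 (0.44% of all genes called), Nr1d2 (-2.37, SE 0.21, adjusted p = 0.0326). With 17 tested in each of 6 comparisons, the Myh9 hairpins called 4 in all. These were Nr1d2 (0.53) and Rorb (-0.44) with shM2 in EV cells (6.65% of all genes called), and Rorb (0.81) and Arntl2 (-1.53) with shM4 in dHLH cells (15.1%). Of 7 further clock outputs, Lonrf3 alone was called with WT against EV in aC3 (11.2% of all genes called), and lower, and Wee1 and Usp2 were called lower with dHLH against EV in YUMM2.1 (13.2%). With shM4 in dHLH cells, where 15.1% of genes were called, 4 of these 7 were higher (Wee1, Usp2, Lonrf3 and Por) and 2 lower (Nampt and Alas1), while no member was called.

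Likeness between genes was read from group means of log2 CPM, each less the mean of its own experiment, over the 20 groups and among 14116 genes with a mean of at least 10 counts. The gene most like Dbp was Tef (Pearson r = 0.934), then Per3 (0.934) and Nr1d1 (0.892), and the genes most like Tef were Dbp, Per3 (0.894) and Cask (0.862). Bhlhe41 was most like Hilpda (0.904), a lipid droplet gene of the response to low oxygen, then Arrdc3 (0.824) and 7330423F06Rik (0.816). Without centring on the experiment, r was 0.707 for Dbp and Tef, 0.932 for Dbp and Per3, and 0.131, -0.67 and 0.0898 for Bhlhe41 with Hilpda, Arrdc3 and 7330423F06Rik, so the likeness of Bhlhe41 to these genes depends on the centring. Bhlhe40 was most like Gm37219 (0.87), L1td1 (0.867) and Fyb (0.858), and Ciart like Ap3b2 (0.858), Tnfaip3 (0.841) and Gm43201 (0.835). Among members, Bhlhe40 had r = 0.564 with Dbp, Ciart had r = 0.706 with Bhlhe41, and Dbp had r = 0.102 with Bhlhe41. The YUMM2.1 dHLH group with shM4 was lowest for both Ciart and Bhlhe41 (centred values -1.28 and -0.874). Its Ciart counts were 14 and 5, and r without this group was not computed. Against Arntl, r was -0.677 for Dbp, -0.716 for Tef and -0.734 for Bhlhe40, and -0.0419 for Bhlhe41. These are descriptions over 20 points that share libraries, constructs and counting, and groups of 1 experiment are not independent.

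**Figure D5:**
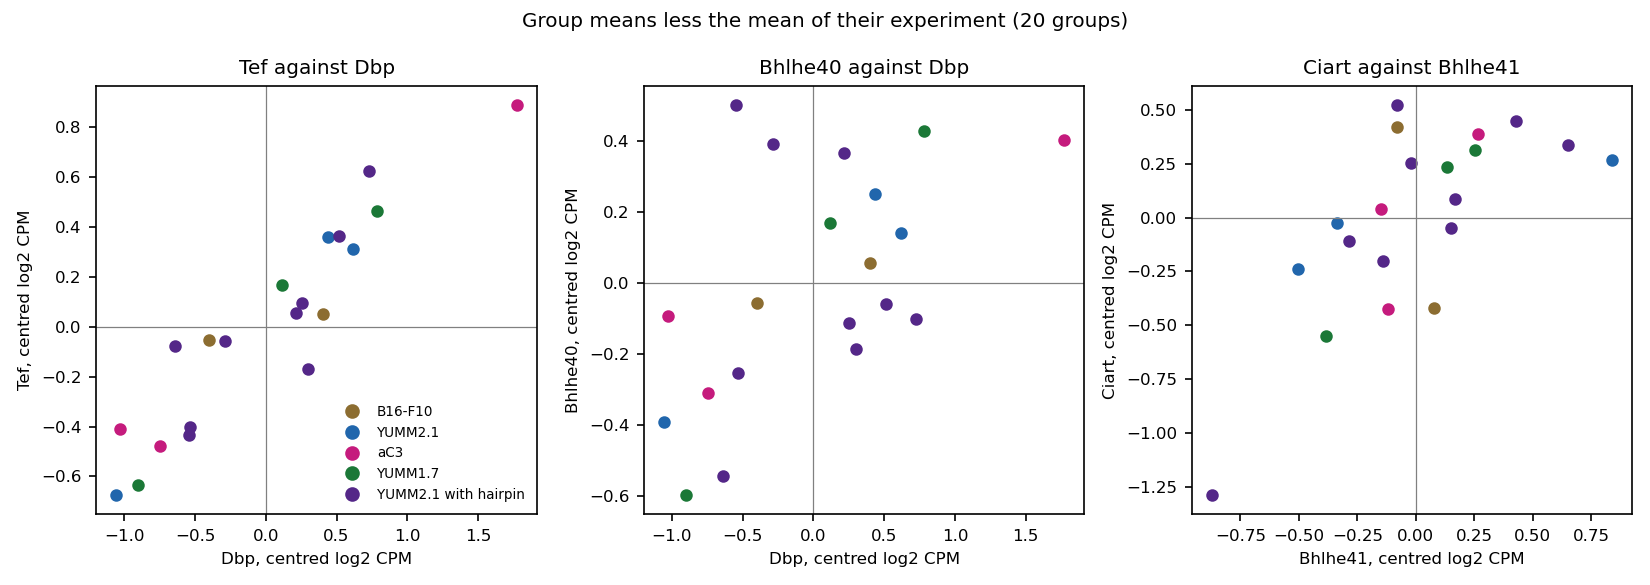
Group means of log2 CPM less the mean of their experiment for Tef against Dbp, Bhlhe40 against Dbp and Ciart against Bhlhe41, with 1 point for each of 20 groups coloured by experiment. Tef and Dbp lie near a line (r = 0.934), and Bhlhe40 scatters more (r = 0.564). The dHLH group with shM4 lies far below the others for Ciart and is also lowest for Bhlhe41.

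Of the 6 genes, 5 overlap a gene on the other strand, and whether counting used strand was not given, so reads of such pairs may not be told apart. Sphk2, which overlaps Dbp, was 22.8 to 47 CPM in group means and moved opposite to Dbp in aC3, with log2 differences of -0.42 for WT less EV (adjusted p = 0.0291) and -0.57 for WT less dHLH (adjusted p = 0.0325). The antisense or unclassified genes at Tef, Ciart, Bhlhe40 and Bhlhe41 had group means of at most 1.67 CPM.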

How the data were processed

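RNA of 40 libraries (20 groups of 2, called biological replicates by the study) was sequenced by QuantSeq, a 3′ method whose counts do not grow with transcript length. The deposited values are estimated counts per gene that the authors made with bowtie2 and RSEM on mm10, from 75 bp single reads. RSEM is version 1.2.3 in the submitters' processing notes. Every value was whole, and no column was left out. A table of the authors' normalised values and test results was used only to match columns to libraries. No p-value or fold change of the authors was used.

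Counts were tested with edgeR 4.0.16 (R 4.3.3; TMM, filterByExpr, quasi-likelihood F-test, two-sided), with Benjamini-Hochberg adjustment over all genes tested and calls at an adjusted p under 0.05. SEs are the log2 fold change over the root of F. Each line, and the 9 hairpin groups together, had its own fit, and lines and effects between lines used 1 fit of all libraries. With 2 libraries a group, an exact permutation test cannot go below p = 0.333. Deviations of same-numbered libraries from their group means correlated at 0.187 to 0.415 in all 3 pairs of YUMM2.1 groups, so blocked values are given there. This pairing comes from the data, and the labels name no shared day. It also includes the EV and WT libraries of doubtful label, which would fall in other pairs if exchanged. The block was not run with the labels exchanged, so the blocked calls in YUMM2.1 hold only for the labels as deposited. The script was tested on simulated data. DESeq2 1.42.0, other filters, a replicate block and left-out libraries were alternatives. All 6 members are named; other clock genes past the threshold are named where 5 or fewer, and otherwise the 3 with the largest change. Members and lists were chosen with earlier results of these data known. Ensembl identifiers were mapped with GENCODE M21 (GRCm38).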

Additional observations from a re-analysis of the deposited data

Results flagged for a closer look

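Differences of differences between cell sets passed the test (edgeR, 1 fit of all 40 libraries) for 11 of 42 values. The share of all genes called is in brackets. For WT less EV, aC3 exceeded YUMM2.1 by 2.36 for Dbp and 1.41 for Tef (0.168%), and the shNC cells exceeded YUMM2.1 by 0.85 for Tef (7.53%). For dHLH less EV, aC3 exceeded YUMM2.1 by 1.22 for Dbp, 1.10 for Tef and 0.88 for Bhlhe40 (11.6%). The shNC cells exceeded it by 1.50 for Dbp and 1.06 for Tef (1.82%), and Bhlhe41 differed by -1.75 in YUMM1.7 less YUMM2.1 (9.42%). For the loss of Bmal1, B16-F10 less aC3 gave 1.71 for Dbp and 1.27 for Tef (4.77%). All are on the log2 scale. Each was refitted in 16 runs, under alternatives or with 1 library left out. Bhlhe40 with dHLH in aC3 kept its call in 9 of them and Tef with WT in the shNC cells in 11. With dHLH in the shNC cells, Dbp and Tef kept theirs in 12 each. Bhlhe41 in YUMM1.7 kept it in 13 and Dbp with dHLH in aC3 in 15. The remaining calls were kept in all 16. In aC3 and B16-F10 the clone cannot be told apart from the loss of Bmal1.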

How the results depend on the processing

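Of 43 called values, 313 of 331 runs under alternatives kept the call and 18 lost it, and 170 of 216 runs with 1 library left out kept it and 46 lost it, with no change of sign. Of 1654 runs of 131 values that were not called, 65 reached a call and 107 changed sign. The number of member tests called was 0 in B16-F10 and 1 in 1 fit of all 40 libraries. In YUMM2.1 it was 4, and 7 without a filter on low counts, 8 with the replicate block and 9 in the fit of all 40 libraries, the additions being Bhlhe40 and Bhlhe41, with Hlf in the last. In YUMM1.7 it was 5, and 8 without the filter and 3 in the fit of all 40, where Dbp and Tef with dHLH had adjusted p = 0.0691 and 0.0533 (edgeR). With shNC it was 6, and 2 with a minimum absolute log2 fold change of 1. For the hairpins it was 0, and 1 by DESeq2, 2 without the filter and 1 in the fit of all 40, and for hairpin effects between constructs 0, and 2 under each of these. For effects between lines it was 11, and 7 with only the groups compared. With 1 library left out, the counts ran from 0 to 3 in B16-F10, 5 to 6 in aC3, 3 to 5 in YUMM2.1, 3 to 6 in YUMM1.7, 2 to 4 with shNC, 0 to 1 for hairpins, 12 to 13 between lines, 7 to 13 for effects between lines and 0 for hairpin effects. The cause was not tested. Besides the 8 in YUMM2.1, the replicate block gave 6 in aC3 and 12 for effects between lines, and the main number in the other families of tests. The mean correlation behind the pairing check was 0.0979 in B16-F10, 0.0397 in aC3, -0.00609 in YUMM1.7 and -0.00219 in the hairpin groups. Depth limits Hlf and Ciart most.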
